A study of Mus musculus with 88 samples.

Results

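The genes that build the node of Ranvier and its flanks were measured by RNA-seq in the medial prefrontal cortex (mPFC), the bed nucleus of the stria terminalis (BNST) and the ventral hippocampus (vHPC) of mice after chronic social defeat stress (CSDS). The 10 genes were Nfasc, Cntn1, Cntn2, Cntnap1, Cntnap2, Ank3, Sptbn4, Nrcam, Kcna1 and Kcna2, taken by symbol through their Ensembl identifiers. No measured value entered that rule, but the genes were chosen with earlier results of these data known. They were 10 of 18946 genes deposited for the mPFC, of 48795 for the BNST and of 19559 for the vHPC. All 10 could be tested in every region, and the filter on low counts in the BNST, which left 17515 genes, removed none of them.

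A node of Ranvier is the short gap between neighbouring myelin segments where sodium channels are packed and the action potential is renewed. On each side the myelin loops attach to the axon at the paranode, and beyond the paranode, under the compact myelin, lies the juxtaparanode with its potassium channels. The structure is made by both cells. The axon supplies Cntnap1 (Caspr) and Cntn1 (contactin), which pair at the paranode, and Ank3 (ankyrin-G), Sptbn4 (beta-IV spectrin) and Nrcam, which hold the channels of the node in place. At the juxtaparanode Cntnap2 (Caspr2) holds the Shaker-type channels encoded by Kcna1 and Kcna2 together with Cntn2 (TAG-1), which axon and glia both make. Nfasc stands on both sides, since neurons use the gene for the neurofascin of the node and oligodendrocytes for the neurofascin of the paranode, and a count per gene pools these isoforms.

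The members differed in gene structure and place (GRCm38). Nfasc (chr1:132564690-132741797, minus strand, 36 merged exons) and Cntn2 (chr1:132509427-132543256, minus strand, 26 merged exons) lay close together. Cntnap1 (chr11:101170523-101190724, plus strand, 25 merged exons) was compact, whereas Cntnap2 (chr6:45059357-47304213, plus strand, 28 merged exons) spanned 2244857 bases. The nodal scaffold genes were Ank3 (chr10:69398773-70027438, plus strand, 63 merged exons) and Sptbn4 (chr7:27356383-27447686, minus strand, 40 merged exons). The others were Cntn1 (chr15:92051165-92341967, plus strand), Nrcam (chr12:44328885-44601964, plus strand), Kcna1 (chr6:126640397-126646384, minus strand) and Kcna2 (chr3:107101146-107115005, plus strand). The exons of Cntnap1 shared 233 bases with Plekhh3 on the opposite strand, and those of Sptbn4 shared 134 bases with Gm20479 on the same strand and 243 with Gm44924 on the opposite strand, so a small share of their reads could belong to those genes.

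RefSeq start sites (GRCm38.p6) gave 14 promoter windows for 7 of the 10 members, each from 250 bases before to 50 bases after a start. Cntnap1, Ank3 and Kcna1 had none. The windows below belong to Sptbn4, Cntnap2, Cntn2 and Nfasc, and CpG pairs are in capitals. The most upstream Sptbn4 window, at chr7:27446540-27446839 (minus strand), held 41 CpG pairs. Its other windows, not shown, held 33, 24 and 1. The median of 32851 mouse windows was 7, and 3.46% held as many as 41 or more. The Cntnap2 window at chr6:45059811-45060110 (plus strand) held 14 and that of Cntn2 at chr1:132542891-132543190 (minus strand) held 13. A second Cntnap2 window, not shown, held 3. Nfasc had a window at chr1:132707277-132707576 with 7 pairs and one at chr1:132642809-132643108 with 3, both on the minus strand and both inside the gene as annotated above.
Sptbn4: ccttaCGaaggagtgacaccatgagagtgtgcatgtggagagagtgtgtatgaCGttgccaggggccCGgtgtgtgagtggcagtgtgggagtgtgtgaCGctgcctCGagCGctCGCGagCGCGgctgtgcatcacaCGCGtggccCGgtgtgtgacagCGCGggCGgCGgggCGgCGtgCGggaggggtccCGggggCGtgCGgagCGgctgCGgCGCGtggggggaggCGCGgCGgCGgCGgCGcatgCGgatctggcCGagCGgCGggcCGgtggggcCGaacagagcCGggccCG
Cntnap2: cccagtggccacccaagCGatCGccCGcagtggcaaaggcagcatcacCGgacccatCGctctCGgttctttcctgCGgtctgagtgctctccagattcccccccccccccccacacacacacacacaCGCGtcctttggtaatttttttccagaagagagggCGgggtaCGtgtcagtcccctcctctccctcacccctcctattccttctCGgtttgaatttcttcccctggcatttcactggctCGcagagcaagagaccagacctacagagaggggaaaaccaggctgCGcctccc
Cntn2: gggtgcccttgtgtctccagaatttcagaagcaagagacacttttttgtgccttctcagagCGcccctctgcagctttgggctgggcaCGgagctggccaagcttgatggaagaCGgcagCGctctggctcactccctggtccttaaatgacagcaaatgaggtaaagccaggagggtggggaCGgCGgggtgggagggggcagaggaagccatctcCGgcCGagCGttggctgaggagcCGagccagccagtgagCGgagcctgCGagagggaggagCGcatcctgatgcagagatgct
Nfasc, upstream start: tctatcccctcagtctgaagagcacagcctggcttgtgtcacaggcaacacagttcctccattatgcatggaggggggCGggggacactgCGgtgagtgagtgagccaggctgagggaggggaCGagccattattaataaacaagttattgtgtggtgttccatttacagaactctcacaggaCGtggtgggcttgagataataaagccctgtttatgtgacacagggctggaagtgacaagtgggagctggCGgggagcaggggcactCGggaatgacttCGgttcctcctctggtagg
Nfasc, downstream start: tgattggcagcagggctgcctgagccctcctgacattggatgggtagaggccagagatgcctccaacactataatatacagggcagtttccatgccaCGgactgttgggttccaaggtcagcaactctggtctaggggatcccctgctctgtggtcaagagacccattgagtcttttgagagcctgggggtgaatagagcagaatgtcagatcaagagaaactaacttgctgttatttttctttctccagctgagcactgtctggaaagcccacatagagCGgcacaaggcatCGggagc

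The letters ACAAT or their reverse complement ATTGT, the core read by SOX factors such as Sox10 of oligodendrocytes, stood in 4 of the 14 windows, against 31.0% of all windows. The upstream Nfasc window held 1 match, while the Sptbn4 and Cntn2 windows and the Cntnap2 window shown held none. The second Cntnap2 window held 2. The Cntn1 windows, not shown, held 0, 2 and 1 from the most upstream on. These matches describe letters only.

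The groups were male mice of 2 inbred strains, labelled C57BL/6Crl (B6) and DBA/2Crl (D2), aged 8 weeks. The study names these strains C57BL/6NCrl and DBA/2NCrl. Controls were not defeated. Defeated mice had met an aggressor repeatedly and were called susceptible when they avoided a social target more than controls of their own strain, and resilient otherwise, and tissue was taken 6 to 8 days after the last defeat. The labels name no transgene and no drug. For the mPFC, 6 mice stood in each B6 group, with 6 controls and 8 susceptible animals of D2. BNST groups held 5 mice each except for the resilient D2 group, which held 3. For the vHPC there were 6 controls, 8 resilient and 3 susceptible animals of B6, and 6 controls and 5 susceptible animals of D2. Resilient D2 mice were thus present in the BNST alone. Each library was 1 mouse and 1 region, 7 mice were sampled in mPFC as well as vHPC, and p values measure the spread between mice of a region. In the mPFC and vHPC that is the spread left after the authors' adjustment for sets. The fit took no account of that adjustment, so p values there may be too small.

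The mPFC and vHPC values were log2 CPM, the log of reads per gene scaled by the reads of the library, adjusted by the authors for library sets and, for the vHPC, for sequencing sets as well. No counts per gene go with them. The study lists the number of analysed reads of each library, which was not used here. The BNST table held raw counts, 11825757 to 25793910 per library, and the lowest count of any member in any library was 459. A gene was called where its Benjamini-Hochberg adjusted p over all genes tested was under 0.05 (limma in the mPFC and vHPC, edgeR in the BNST, two-sided). Some values below come from other fits, such as one with library set as a term. Leaving out 1 mouse aside, the share of all genes called in those fits is not given. Calls gained, kept or lost in them cannot be weighed against that share. Library sets tie to groups in the vHPC. Of the 10 library sets there, none mixed B6 controls with defeated B6 animals and none mixed the controls of the strains, so these contrasts and the library set cannot be told apart within sets. In the mPFC, 4 of 5 library sets held both groups of each comparison. Single libraries stood apart, since the mPFC library of susceptible B6 mouse 4 was the lowest of 32 for 5 members, the vHPC library of resilient B6 mouse 6 was the lowest of 28 for 5, and the BNST library of control D2 mouse 2 was the lowest of 28 for 5 members and the highest for 2. The BNST library of control D2 mouse 5 was the lowest for 1 and the highest for 4. The markers of neurons and oligodendrocytes were measured in all 3 regions (12 of 12 and 14 of 14).

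Within a region the node genes differed in level. Per kilobase of exon, Cntn1 was the highest member in the mPFC (mean log2 CPM per kb 6.17) and the vHPC (6.14), followed by the cell adhesion gene Nrcam (5.53 and 5.59) and the potassium channel gene Kcna2 (5.22 and 5.09). Cntn2 was the lowest (3.203 in the mPFC, 3.56 in the vHPC). In the mPFC each of the steps from Cntn1 to Nrcam, Kcna2 and Ank3 (4.46) held in all 32 libraries, as did those from Kcna1 (4.36) to Nfasc (4.07) and from Sptbn4 (3.67) to Cntn2. Neighbours Ank3, Cntnap2 (4.45) and Kcna1, and Nfasc, Cntnap1 (3.81) and Sptbn4, lay within their spread.

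The vHPC kept the steps Cntn1, Nrcam and Kcna2 apart in all 28 libraries, and Ank3 (4.189) from Cntn2. Between them Cntnap1 (4.78), Kcna1 (4.67), Sptbn4 (4.35), Nfasc (4.303), Cntnap2 (4.29) and Ank3 lay within the spread of their neighbours. In the BNST the members ran from Cntnap1 (5.63), Ank3 (5.54) and Nfasc (5.29) through Kcna1 (5.17), Cntn1 (5.09), Kcna2 (4.95), Cntnap2 (4.69), Sptbn4 (4.598) and Nrcam (4.32) to Cntn2 (4.13), and no neighbours stood apart in all libraries. The paranodal partners Cntnap1 and Cntn1 thus ranked 8 and 1 for mPFC but 1 and 5 for BNST. Regions were prepared with different kits and normalised separately, so the order within a region is a description and no level was tested across regions. Among protein-coding genes the members stood between the percentiles 63.7 (Cntn2) and 98.2 (Cntn1) for mPFC, 85.8 and 97.1 for BNST, and 72.4 and 97.9 for vHPC.

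**Figure D1:**
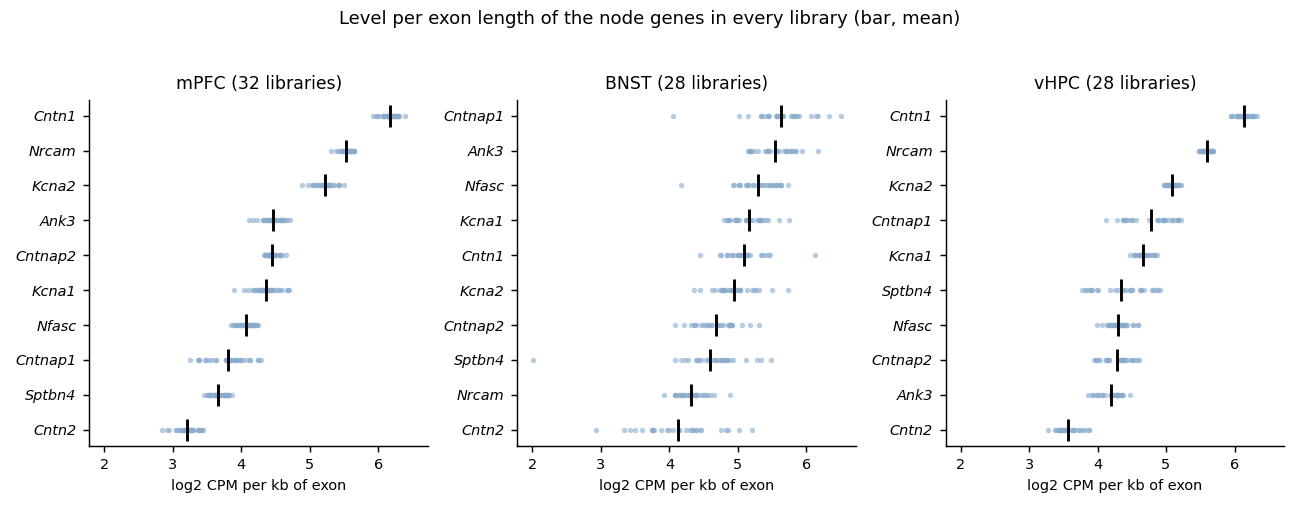
Level of the 10 node genes in log2 CPM per kb of exon, one point for each library and a bar at the mean, with the genes of each region ordered by mean. Cntn1 leads in the mPFC (6.17) and vHPC (6.14) and Cntnap1 in the BNST (5.63), with Cntn2 last in each region.

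The strain comparison asked whether unstressed B6 and D2 mice differ in their node genes. In the mPFC, Cntnap1 was the called member, higher in D2, and 1 of 10 members compared with 27.8% of all genes. Cntnap1 in control B6 mice ran from 5.93 to 6.46 (median 6.12) log2 CPM. In control D2 mice it ran from 6.48 to 6.80 (median 6.68). The groups did not overlap, and all 6 D2 mice were above every B6 mouse. The log2 fold change was 0.50 ± 0.106 (SE), or 1.41-fold, with adjusted p 0.000642, and within the 4 library sets that held both strains it was 0.27 to 0.74. Cntn1, its paranodal partner, was -0.09 ± 0.0501 (adjusted p 0.197).

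No other mPFC member passed the threshold. The ankyrin gene Ank3 ran from 9.23 to 9.61 (median 9.54) in control B6 and from 9.48 to 9.83 (median 9.73) in control D2 mice (log2 fold change 0.18 ± 0.0725, adjusted p 0.0574). Cntnap2 was -0.10 ± 0.0382 (adjusted p 0.0544) and Kcna1 0.23 ± 0.0973 (adjusted p 0.0795). Nfasc differed by -0.0038 ± 0.0621 and Sptbn4 by 0.06 ± 0.0655. The median log2 fold change was 0.10 over the members and 0.00 over all genes. Neuron markers summed to 13.0 to 13.3 log2 CPM in control mice of each strain. Called lower in D2 were 14 of 14 oligodendrocyte, 4 of 8 astrocyte, 3 of 8 microglia and 2 of 6 endothelial markers. So were 2 of 6 oligodendrocyte precursor and 2 of 6 striatal neuron markers (striatal median -1.32). The part of these cells in the strain values was not tested. With quantile normalisation Cntn1, Cntnap1, Cntnap2 and Ank3 were called, and Ank3, Cntnap2 and Kcna1 each passed without 1 of several mice, among them control B6 mouse 2 (Ank3, Kcna1) and control B6 mouse 4 (Cntnap2), so which of them passed varied with single libraries.

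In the vHPC 6 of 10 members were called between control strains, where 59.3% of all genes were. The spectrin gene Sptbn4 ran from 7.03 to 7.25 (median 7.147) in control B6 mice and from 7.62 to 8.05 (median 7.83) in control D2 mice, with no overlap (0.69 ± 0.0918, 1.61-fold, adjusted p 5.06e-07). Cntnap1 was also higher in D2. It ran from 6.92 to 7.11 (median 6.99) in control B6 mice and from 7.42 to 7.65 (median 7.52) in control D2 mice, again with no overlap (0.51 ± 0.0983, 1.43-fold, adjusted p 8.2e-05). Cntnap2 went the other way, from 7.90 ± 0.0493 (SD, n = 6) in control B6 to 7.50 ± 0.0218 (SD, n = 6) in control D2 mice. Every D2 mouse was below every B6 mouse (-0.40 ± 0.0289, 0.756 times the B6 level, adjusted p 6.88e-12).

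Adhesion and channel genes were lower by less, namely Cntn1 (-0.17 ± 0.0392, adjusted p 0.000557), Nrcam (-0.11 ± 0.0301, adjusted p 0.00413) and Kcna2 (-0.12 ± 0.0342, adjusted p 0.00553). Control groups overlapped for Kcna2 and not for Cntn1 and Nrcam. Nfasc (-0.01 ± 0.0832), Cntn2 (0.04 ± 0.0919), Kcna1 (-0.07 ± 0.0565) and Ank3 (0.13 ± 0.0716, adjusted p 0.134) were not called. The members split 2 higher and 4 lower, and their median was -0.04 against 0.01 over all genes. Within sequencing set 1 (5 D2 and 6 B6 controls) Sptbn4 was 0.65, Cntnap1 0.51 and Cntnap2 -0.40. With library set in the fit Cntnap2 alone was still called (-0.40, adjusted p 0.0413), while Sptbn4 was 0.82 (adjusted p 0.135) and Cntnap1 0.49 (adjusted p 0.491).

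Base composition moved with the same contrast. Exon GC was 63.3% in Sptbn4 and 56.6% in Cntnap1, and 44.1% in Cntnap2 and 44.3% in Cntn1. Across all genes the median log2 fold change rose from -0.09 in the lowest of 5 GC classes to 0.15 in the highest. Cell markers moved with it too. Of 12 neuron markers 7 were called higher and 0 lower in control D2 mice. All 14 oligodendrocyte, all 6 endothelial and all 6 choroid plexus markers were lower. Of 8 microglia markers 6 were lower and 1 higher, and of 8 astrocyte markers 6 were lower and 2 higher. Choroid plexus markers summed to 5.37 to 11.1 log2 CPM in control B6 and 4.62 to 9.07 in control D2 mice. The part of cell content in the strain values was not tested. After adjustment for GC, Sptbn4 was 0.47, Cntnap1 0.39 and Cntnap2 -0.35, and these 3 were still called.

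No BNST member was called between control strains, compared with 2.51% of all genes (edgeR, 0 of 10 also at an unadjusted p under 0.05, and 0 by DESeq2). Cntnap1 stood at 7.699, 7.99, 8.38, 8.73 and 8.00 in control B6 mice and at 8.88, 6.61, 8.33, 8.70 and 8.13 in control D2 mice. The low value belonged to D2 mouse 2, and the groups overlapped. The log2 fold change of Cntnap1 was 0.10 ± 0.285 with a 95% interval of -0.48 to 0.69, so a strain difference as large as the one in the mPFC lay inside it. For Sptbn4 the interval was -0.98 to 0.37, and without D2 mouse 2 the value moved from -0.31 to -0.04.

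Between the susceptible mice of both strains 2 mPFC members were called, where 17.5% of all genes were. Cntnap1 ran from 5.81 to 6.45 (median 6.34) in susceptible B6 mice and from 6.34 to 6.85 (median 6.54) in susceptible D2 mice. These groups overlapped (0.29 ± 0.0994, 1.22-fold, adjusted p 0.0388), and the call was lost in 7 of 14 runs that left out 1 mouse (highest adjusted p 0.138) and with library set in the fit (0.29, adjusted p 0.0811). Within the 4 shared library sets it was 0.15 to 0.60. The mice whose removal lost the call were susceptible B6 mice 1 and 4 and susceptible D2 mice 1, 2, 3, 5 and 6. Cntnap2 ran from 7.76 to 7.95 (median 7.92) in B6 and from 7.703 to 7.83 (median 7.72) in D2, lower in D2 with some overlap (-0.15 ± 0.0358, adjusted p 0.00225), and it was called in all 14 runs.

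In the vHPC 3 members were called between susceptible mice, against 32.7% of all genes, and all were lower in D2. Cntnap2 stood at 7.73, 7.66 and 7.74 in susceptible B6 mice and at 7.33, 7.36, 7.31, 7.39 and 7.34 in susceptible D2 mice, without overlap (-0.36 ± 0.0366, 0.779 times the B6 level, adjusted p 1.76e-08). Cntn1 (-0.15 ± 0.0496, adjusted p 0.0225) and Nrcam (-0.14 ± 0.0380, adjusted p 0.00567) did not overlap either. The Cntn1 call was lost without susceptible B6 mouse 1 or 3 or susceptible D2 mouse 4. Sptbn4 remained higher in value in D2 (0.29 ± 0.116, adjusted p 0.0569) and Cntnap1 was 0.12 ± 0.124 (adjusted p 0.504).

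Among susceptible mice no BNST member was called (edgeR), compared with 5.18% of all genes, and 2 of 10 were under an unadjusted p of 0.05. Ank3 stood at 10.73, 10.83, 11.29, 10.84 and 10.88 in susceptible B6 and at 10.67, 10.28, 10.56, 10.30 and 10.32 in susceptible D2 mice. All 5 D2 mice were below all 5 B6 mice, yet the difference of -0.49 ± 0.159 had an adjusted p of 0.0677. DESeq2 called it, and without susceptible B6 mouse 3 it was -0.39 (adjusted p 0.180). Neuron markers summed to 12.4 to 12.7 log2 CPM in these B6 mice and 11.8 to 12.4 in these D2 mice, and striatal neuron markers, cells of a neighbouring structure, to 10.51 to 12.47 and 10.03 to 10.72. Their part in the Ank3 value was not tested. The median of the members was -0.20 and that of all genes 0.00.

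**Figure D2:**
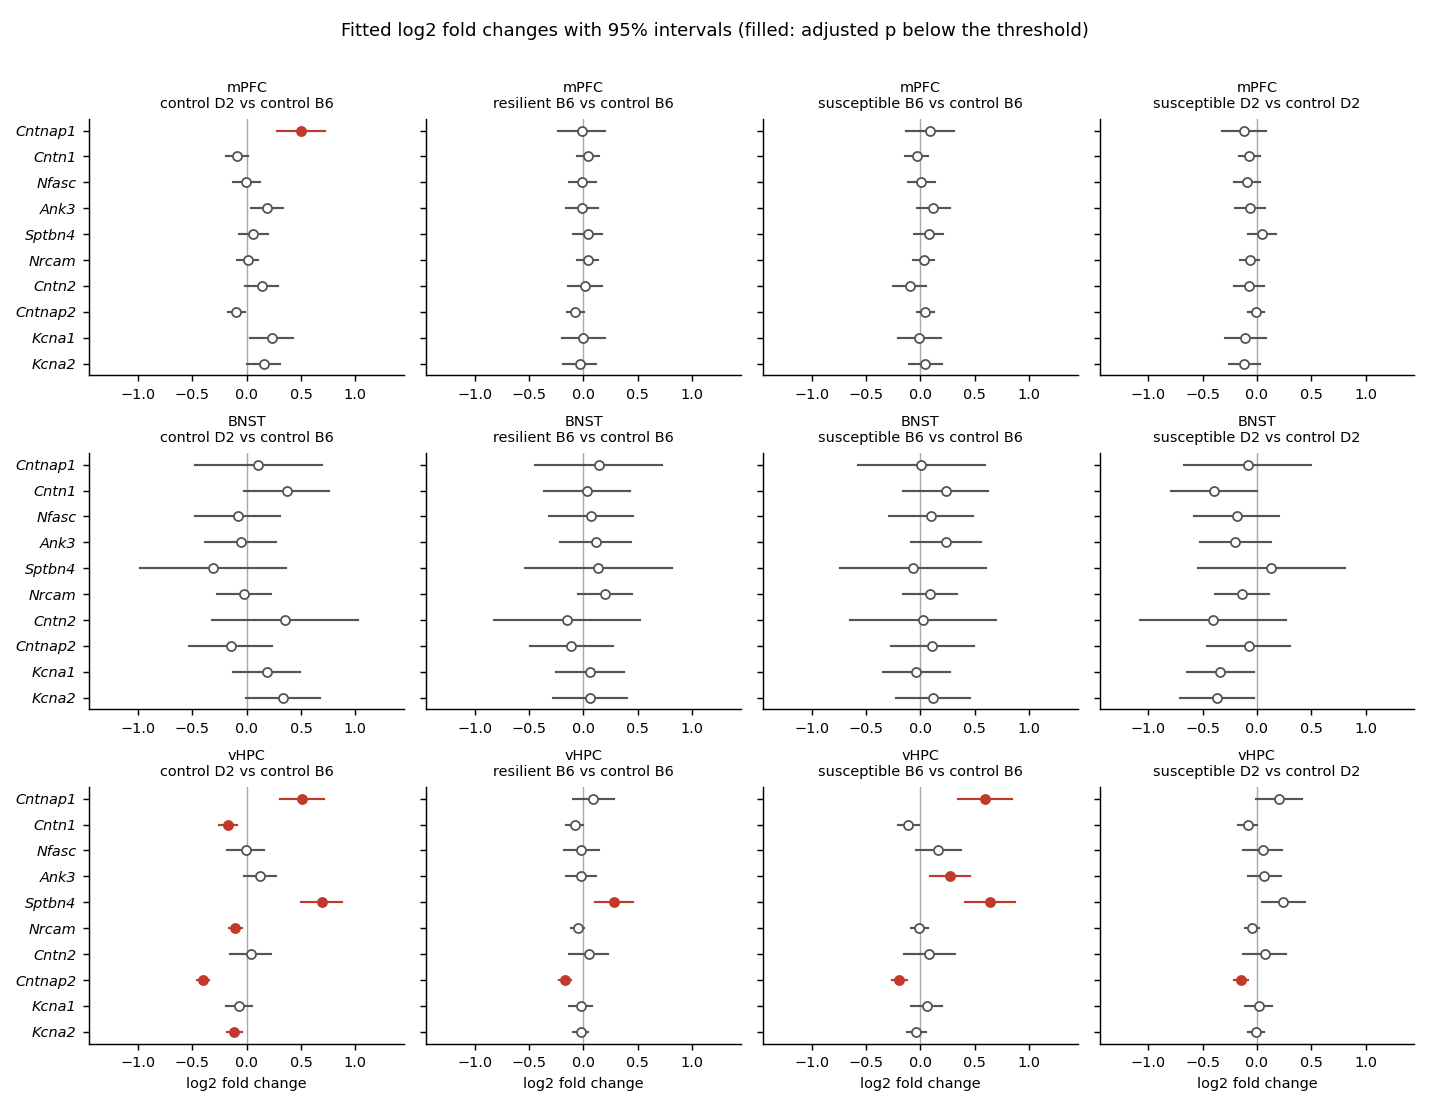
Log2 fold change of the 10 node genes in the mPFC, BNST and vHPC for control D2 against control B6, resilient B6 against control B6, susceptible B6 against control B6 and susceptible D2 against control D2, with 95% intervals, where filled red points were called. Called points are 1 in the mPFC (Cntnap1, strain) and 6, 2, 4 and 1 in the 4 vHPC comparisons, and BNST intervals are the widest.

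The stress comparisons asked what CSDS and its behavioural outcome went with in each strain. The comparisons of a strain share its control mice. In the vHPC of susceptible B6 mice 4 members were called, where 40.6% of all genes were. Sptbn4 ran from 7.03 to 7.25 (median 7.147) in controls and stood at 7.68, 7.94 and 7.73 in the 3 susceptible mice. Cntnap1 ran from 6.92 to 7.11 (median 6.99) in controls and stood at 7.59, 7.68 and 7.53 in susceptible mice. Susceptible mice were above every control for both genes, with Sptbn4 1.56-fold higher (0.65 ± 0.112, adjusted p 0.000103) and Cntnap1 1.52-fold higher (0.60 ± 0.120, adjusted p 0.000446).

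Ank3, the scaffold partner of Sptbn4 at the node, ran from 9.12 to 9.32 (median 9.21) in controls and stood at 9.42, 9.60 and 9.49 in susceptible mice (0.27 ± 0.0877, adjusted p 0.0151). Its call was lost without susceptible mouse 2 (adjusted p 0.0970). The juxtaparanodal Cntnap2 fell, from 7.84 to 7.96 (median 7.90) in controls to 7.73, 7.66 and 7.74, again with no overlap (-0.19 ± 0.0354, 0.876 times the control level, adjusted p 0.000189). Cntn1 was -0.11 ± 0.0480 (adjusted p 0.0705), Nfasc 0.17 ± 0.102 (adjusted p 0.195) and Cntn2 0.08 ± 0.113 (adjusted p 0.572). The channel genes Kcna1 (0.06 ± 0.0692) and Kcna2 (-0.04 ± 0.0419) and the adhesion gene Nrcam (-0.01 ± 0.0368) were not called.

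The same 4 genes were called when libraries of sequencing set 1 alone were fitted (2 susceptible mice against 6 controls), with Cntnap1 0.56, Sptbn4 0.57, Ank3 0.23 and Cntnap2 -0.17. With library set in the fit the values were 0.65, 0.76, 0.24 and -0.18 and none was called (adjusted p 0.340 to 0.712). The shares of all genes called in these fits are not given here, so calls kept or lost cannot be weighed against them. The highest of 5 GC classes had a median of 0.08 and the lowest -0.07 in this contrast, and all 4 members were still called after adjustment for GC. Neuron markers moved with it as well, with a summed level of 12.5 to 12.7 log2 CPM in controls and 12.7 to 12.8 in susceptible mice, and 8 of 12 of them called higher and 1 lower. Of the markers of other cells, 14 of 14 oligodendrocyte, 5 of 6 endothelial, 5 of 8 microglia and 2 of 6 choroid plexus markers fell. Of 8 astrocyte markers 3 fell and 1 rose. The part of cell content in these results was not tested, and in bulk tissue fewer cells of a type and less RNA per cell cannot be told apart.

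Resilient B6 mice had 2 called members in the vHPC, where 10.84% of all genes were called. Cntnap2 ran from 7.69 to 7.79 (median 7.73) in resilient mice, and all 8 were below every control (-0.17 ± 0.0270, 0.890 times, adjusted p 9.47e-05). Sptbn4 ran from 7.07 to 7.73 (median 7.48), overlapping the controls (0.28 ± 0.0859, adjusted p 0.0327). That call was lost in 7 of 14 runs leaving out 1 mouse, namely control mice 1, 3 and 6 and resilient mice 2, 3, 7 and 8 (highest adjusted p 0.0816). Cntnap1 ran from 6.67 to 7.50 (median 7.02) and spread more than in the other vHPC groups (SD 0.297 against 0.0480 to 0.0817, log2 fold change 0.09 ± 0.0919, adjusted p 0.596). Resilient mice 4, 7 and 8 had 7.30, 7.50 and 7.45 while the other 5 lay between 6.67 and 7.06, and the 3 came from 3 different library sets. With library set in the fit neither Cntnap2 nor Sptbn4 was called.

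Susceptible and resilient B6 mice differed in 3 vHPC members, where 27.6% of all genes were called, all higher in susceptible mice. Cntnap1 did not overlap (0.51 ± 0.115, 1.42-fold, adjusted p 0.00552), whereas Sptbn4 (0.36 ± 0.108, adjusted p 0.0178) and Ank3 (0.29 ± 0.0839, adjusted p 0.0147) did. The lowest susceptible value of Cntnap1 was 7.53 and the highest resilient value 7.50. Cntnap2, lower than control in each of these defeated groups, differed between them by -0.02 ± 0.0339 (adjusted p 0.635). The calls of Sptbn4 and Ank3 were lost without susceptible mouse 2. When the resilient and susceptible libraries were fitted without the other groups, or sequencing set 1 alone, none of the 3 was called.

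Susceptible D2 mice had 1 called member in the vHPC, with 4.28% of all genes called. Cntnap2 ran from 7.47 to 7.53 (median 7.49) in control D2 mice and stood at 7.33, 7.36, 7.31, 7.39 and 7.34 in susceptible D2 mice. All 5 susceptible mice were below all controls (-0.15 ± 0.0303, 0.902 times, adjusted p 0.00320), and with library set in the fit the call was lost. Cntnap1 stood at 7.73, 7.73, 7.77, 7.64 and 7.72 against 7.42 to 7.65 in controls (0.20 ± 0.103, adjusted p 0.307), and Sptbn4 was 0.24 ± 0.0963 (adjusted p 0.175). Ank3, called in B6, was 0.07 ± 0.0751 here (adjusted p 0.695).

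The test of the difference between the strains' responses called no member in the vHPC (limma), compared with 0.782% of all genes, and 2 of 10 were under an unadjusted p of 0.05 with 18.4% of all genes. Those were Cntnap1 (-0.40 ± 0.158, adjusted p 0.205) and Sptbn4 (-0.40 ± 0.148, adjusted p 0.182), both with the lower estimate in D2. Cntnap2 had 0.04 ± 0.0466 (adjusted p 0.625), with a 95% interval of -0.05 to 0.14. A different response of Cntnap1 and Sptbn4 in the strains was thus not called over all libraries. Both were called when only the 4 groups of the test were fitted. The share of all genes called in that fit is not given here, so these calls cannot be weighed against it.

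**Figure D3:**
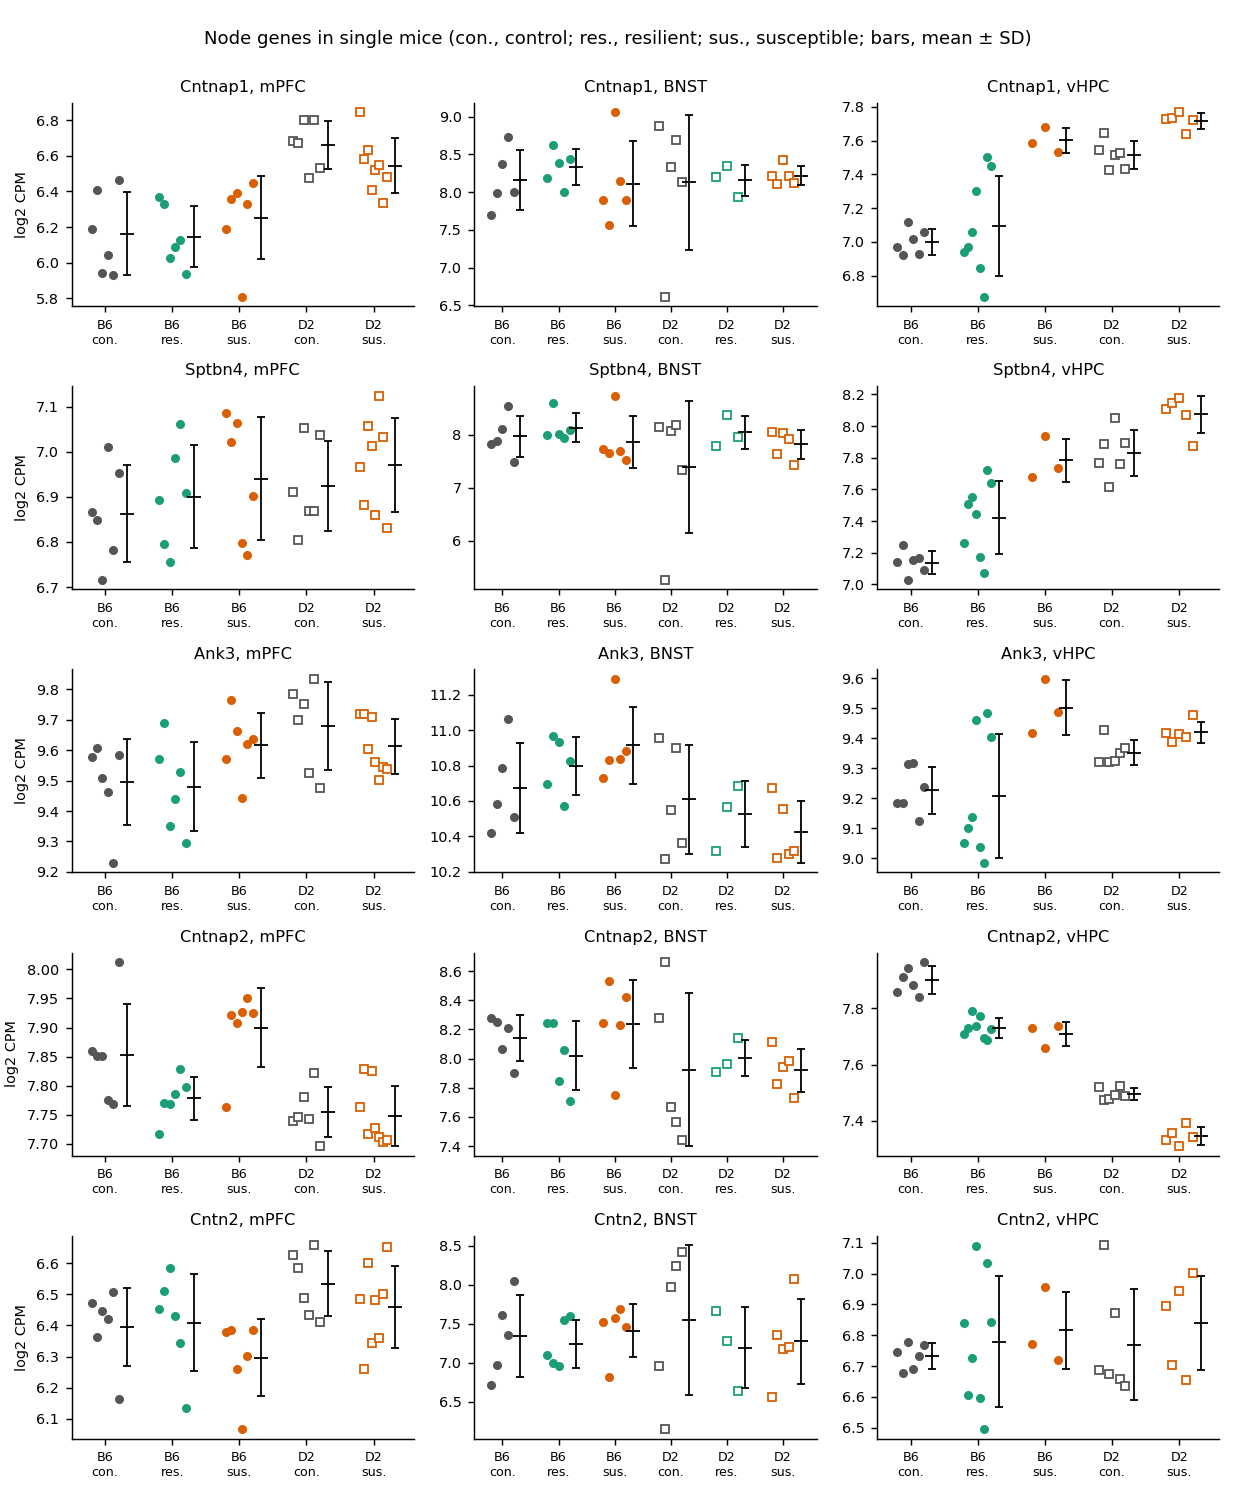
Log2 CPM of Cntnap1, Sptbn4, Ank3, Cntnap2 and Cntn2 in each mouse of each group and region, circles for B6 and open squares for D2, with the mean ± SD of the group and an axis range of its own in each panel. In the vHPC the 3 susceptible B6 mice lie above all 6 controls for Cntnap1, Sptbn4 and Ank3 and below them for Cntnap2.

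In the mPFC no node gene was called after stress in either strain. Susceptible B6 mice had 0 of 10 members called, compared with 2.22% of all genes (limma, 0 of 10 also at an unadjusted p under 0.05, where 18.2% of all genes were). Nfasc ran from 7.79 to 7.99 (median 7.95) in controls and from 7.68 to 8.03 (median 7.96) in susceptible mice. The groups overlapped (0.01 ± 0.0621, 95% interval -0.12 to 0.14). Cntn2 ran from 6.16 to 6.51 (median 6.43) in controls and from 6.07 to 6.386 (median 6.34) in susceptible mice (-0.10 ± 0.0745, 95% interval -0.25 to 0.05). Member fold changes lay between -0.10 and 0.12 with a median of 0.04, against 0.00 over all genes. Susceptible against resilient mice likewise gave 0 called members (2.02% of all genes), with 1 under an unadjusted p of 0.05. That was Cntnap2 (0.12 ± 0.0382, adjusted p 0.0787), which was called without susceptible mouse 1 (adjusted p 0.0284) and after adjustment for GC.

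In the mPFC of resilient B6 and susceptible D2 mice no member was called, nor in the test of the difference between the strains' responses, and 0% of all genes were called in each of these 3 comparisons (limma). No member was under an unadjusted p of 0.05 in any of them, where 3.86%, 3.87% and 9.32% of all genes were. The members ranged from -0.07 (Cntnap2) to 0.04 (Cntn1) in resilient B6 and from -0.12 (Kcna2) to 0.05 (Sptbn4) in susceptible D2 mice.

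In the BNST no member was called after stress in any of the 4 comparisons with controls (edgeR). The share of all genes called was 0% in resilient B6, susceptible B6, resilient D2 and susceptible D2 mice, 0.00571% between susceptible and resilient B6 mice, and 0% in the test between strains. At an unadjusted p under 0.05 there were 0, 0, 1 and 3 members in the comparisons with controls, 0 between susceptible and resilient B6 mice and 2 in the test between strains, and DESeq2 called none in these comparisons. Kcna2 stood at 8.33, 9.07, 8.61, 8.60 and 9.31 in control D2 and at 8.38, 7.94 and 8.03 in the 3 resilient D2 mice, where the highest resilient value was above the lowest control (-0.70 ± 0.197, adjusted p 0.846). The channel genes and contactin were the members nearest to the threshold in susceptible D2 mice, with Kcna2 -0.37 ± 0.167, Kcna1 -0.34 ± 0.151 and Cntn1 -0.40 ± 0.192 (adjusted p 0.764, 0.764 and 0.828). The Cntn1 value rested on control D2 mouse 2, at 9.36 where the other 4 controls lay between 8.16 and 8.68, and was -0.13 without it. Without this mouse Nfasc moved from -0.19 to -0.37 and Cntn2 from -0.41 to -0.63 (adjusted p 0.336 and 0.381). Cntnap1 (-0.31) and Ank3 (-0.28) also became more negative. Nrcam (-0.04), Kcna1 (-0.33) and Kcna2 (-0.30) became less negative, and Cntnap2 (0.15) and Sptbn4 (-0.13) changed sign. The members' median was -0.20 in resilient and -0.19 in susceptible D2 mice, against -0.04 over all genes in each. Marker medians in these groups were -1.37 and -1.28 for thalamic neurons, -0.69 and -0.70 for oligodendrocytes (0 of 14 above 0 in each) and -0.25 and -0.45 for neurons, and their part was not tested.

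The glial side of the node was read from a list of 10 genes of the glial paranode and its lipids (Mag, Jam3, Ugt8a, Gal3st1, Ninj2, Cd9, Pard3, Cldn11, Opalin and Mal), of which 9 were measured in the mPFC and vHPC. Mag, Cldn11, Opalin and Mal also stand in the list of 14 oligodendrocyte markers. In the mPFC of susceptible B6 mice 5 of the 9 fell and none rose, with a median log2 fold change of -0.60, where 2.22% of all genes were called (1.28% lower), while 0 of the 10 node members were called. Opalin, a sialylated protein of oligodendrocytes, fell by 0.97 ± 0.266. Mal, a myelin proteolipid, fell by 0.85 ± 0.196 and Mag, the myelin-associated glycoprotein that faces the axon, by 0.82 ± 0.190. Against resilient mice 3 of 9 fell (median -0.61, with 1.177% of all genes called lower), and Hapln2, a linker of the nodal matrix made by oligodendrocytes, fell by 0.76 ± 0.176. In resilient B6 and susceptible D2 mice 0 of 9 were called (medians -0.02 and -0.10). Of the 6 susceptible B6 mice 5 shared a mouse ID prefix with each other and with 1 control, and the part of that in the list was not tested. Striatal neuron markers were lower in value in these mice (0 of 6 above 0 and 0 of 6 called, median -0.97), with a summed level of 6.72 to 8.28 log2 CPM in controls and 6.13 to 7.25 in susceptible mice, and their part was not tested either.

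Glial paranode genes were lower in the vHPC as well. In susceptible B6 mice 7 of 9 fell (median -0.69), led by Mal (-1.298 ± 0.128) and Mag (-0.99 ± 0.120). Resilient B6 mice had 3 of 9 lower (median -0.30), with Mal at -0.53 ± 0.0979, and susceptible D2 mice had 2 of 9 lower (median -0.28), with Mal at -0.52 ± 0.110. Control D2 mice had 8 of 9 lower than control B6 mice (median -1.07), with Mal at -1.96 ± 0.105 and Opalin at -1.49 ± 0.145, and susceptible D2 mice 5 of 9 lower than susceptible B6 mice (median -0.66). In the mPFC the control strains differed in 6 of 9, all lower in D2 (median -0.62), among them Mal (-1.28 ± 0.196). The share of all genes called lower was 20.1% in susceptible B6, 5.90% in resilient B6 and 2.74% in susceptible D2 mice of the vHPC, 29.1% between its control strains and 16.1% between its susceptible strains, and 14.4% between the control strains of the mPFC. No member of the list was higher in any of these comparisons. Nfasc and Cntn2, the members that glia share, were called in none of them.

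Oligodendrocyte markers moved with the glial list, but 4 genes stand in both lists, so part of this was fixed in advance. Shared and other genes alike, all 9 measured genes of the glial list were below 0 in susceptible against control B6 mice of the mPFC and vHPC. The summed level of the oligodendrocyte markers was 10.4 to 11.3 log2 CPM in control and 9.89 to 10.6 in susceptible B6 mice of the mPFC, and 11.48 to 11.64 and 10.59 to 10.78 in the vHPC. It was 9.77 to 10.3 in control D2 mice of the mPFC and 9.98 to 10.66 in those of the vHPC. All 14 were called lower in D2 controls in both regions, 11 of 14 were lower in susceptible B6 mice of the mPFC and 14 of 14 in those of the vHPC. The part of oligodendrocyte content in the glial list was not tested. In the BNST the list gave 1 of 10 genes called, Mal, lower in susceptible D2 than susceptible B6 mice (-1.132 ± 0.317, adjusted p 0.0334), and 4 of 14 oligodendrocyte markers were lower with it. Of all genes, 3.56% were called lower in that comparison. The median of the list was -0.77 there. It was 0.33 in susceptible B6 mice against controls (8 of 10 above 0, and 14 of 14 oligodendrocyte markers above 0), 0.51 against resilient B6 mice and 0.41 in control D2 against control B6 mice, with none called.

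The axonal lists had members called in both directions in the vHPC, where 20.5% of all genes were higher and 20.1% lower in susceptible B6 mice and 30.2% higher and 29.1% lower in control D2 mice. Of 13 nodal channels and their subunits 3 rose and 2 fell in susceptible B6 mice, and 5 were higher and 2 lower in control D2 than control B6 mice. Of 18 genes of the axonal cytoskeleton and scaffold 6 rose and 3 fell in susceptible B6 mice, and 8 were higher and 4 lower in control D2 mice. Susceptible B6 mice had 3 channels and 7 scaffold genes higher than resilient mice and 0 and 1 lower, where 14.1% of all genes were higher and 13.6% lower. In the mPFC 2 of each list were higher in control D2 mice, where 13.4% of all genes were. None of either list was called in susceptible B6 mice. Over the 58 genes of the 5 lists, 57 measured, susceptible B6 mice had 12 higher and 14 lower in the vHPC and 0 higher and 6 lower in the mPFC, where 0.940% of all genes were higher and 1.28% lower. The vHPC count, 26 of 57, stood near the 40.6% of all genes called.

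**Figure D4:**
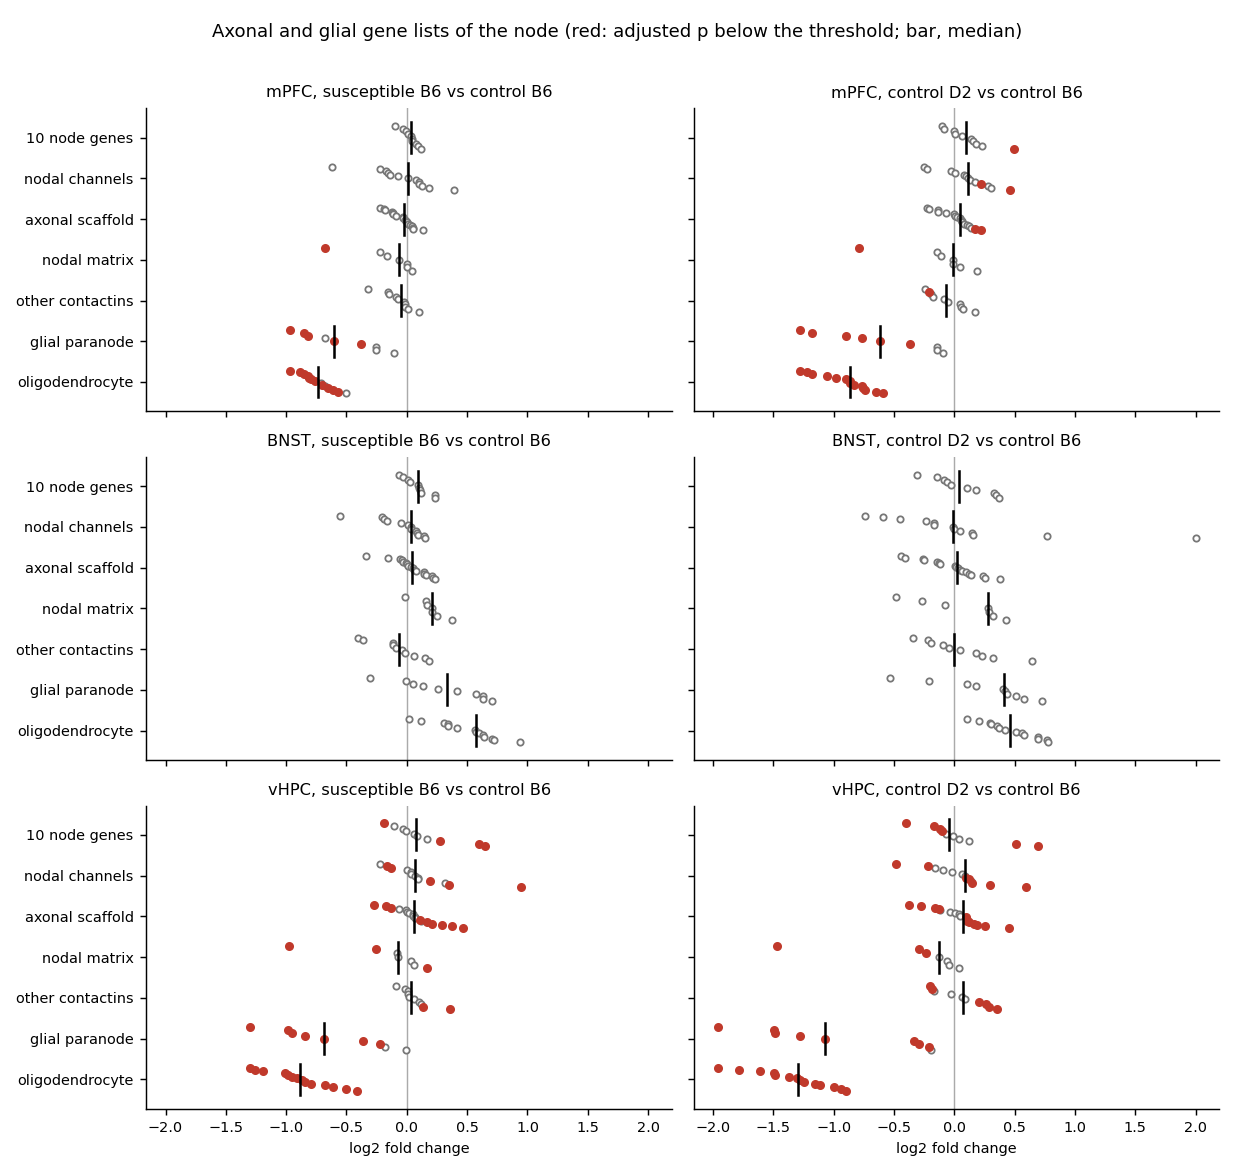
Log2 fold change of every gene of the 10 members, the 5 wider node lists and the oligodendrocyte markers in the mPFC, BNST and vHPC, for susceptible against control B6 mice and for control D2 against control B6 mice, with a bar at the median of each list. The glial paranode list lies below 0 in the mPFC (medians -0.60 and -0.62) and vHPC (-0.69 and -1.07) while the members' medians lie between -0.04 and 0.10 there.

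Covariation between mice showed which members went with glia. Pearson r was taken over the libraries of a region after the mean of each group was removed, as a description. In the mPFC Cntn2 had a median r of 0.61 with the 14 oligodendrocyte markers and 0.20 with 12 neuron markers, and 8 of the 14 stood among its 200 nearest genes. The other members had medians between -0.66 (Cntnap2) and 0.14 (Cntn1) with oligodendrocyte markers. Nrcam (0.62), Cntnap1 (0.61), Nfasc (0.59) and Kcna1 (0.59) were highest with neuron markers. The nearest genes of Cntn2 in the mPFC included Clu (r 0.81) and the oligodendrocyte regulator Myrf (0.79), while those of Nfasc began with Gabbr1 (0.90), a receptor of neurons, and those of Kcna1 with the synaptic Syt2 (0.92).

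Nfasc went with other genes in the other regions. Its median r with oligodendrocyte markers was -0.04 in the mPFC, 0.34 in the vHPC and 0.61 in the BNST. In the vHPC its nearest genes were Myrf (0.95), Inf2 (0.94), Gse1 (0.92), the myelin lipid enzyme Fa2h (0.92) and Abca2 (0.91). In the BNST they included Sirt2, Abca2 and Hepacam after Plekhm2 (0.95), and 2 of the 14 markers were among the nearest 200. In the vHPC 0 of the 14 were among them. The median r of Nfasc with the 12 neuron markers was 0.59 in the mPFC, 0.30 in the vHPC and 0.36 in the BNST. The channel gene Kcna2 had similar BNST values, with a median of 0.58 with oligodendrocyte markers and 2 of 14 among its nearest 200. Cntn2 had a median r of 0.59 with oligodendrocyte markers in the vHPC, where Mcam (0.95) was nearest and Sox10 (0.92) among the 5 nearest, and 0.82 in the BNST, where Mag (0.98) was among them. Nfasc and Cntn2 themselves correlated at 0.55, 0.87 and 0.86 across mPFC, BNST and vHPC libraries.

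Partners at one site did not always vary together. Cntnap1 and Cntn1, which bind each other at the paranode, had r 0.60 in the mPFC, -0.52 in the vHPC and -0.88 in the BNST. In the BNST control D2 mouse 2 had the highest Cntn1 (9.36) and the lowest Cntnap1 (6.61) of all libraries. Susceptible B6 mouse 3 had the lowest Cntn1 (7.68) and the highest Cntnap1 (9.06). No correlation was taken without these libraries. Cntnap1 and Ank3 had 0.74, 0.91 and 0.77 in that order of regions. Kcna1 and Kcna2 had 0.70, -0.01 and 0.58, and Cntn2 and Cntnap2, which bind at the juxtaparanode, had -0.46, -0.32 and -0.84. Libraries share depth, dissection and base composition, and the GC of Cntnap1 and Cntn1 was 56.6% and 44.3%, and the part of these in the correlations was not tested.

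**Figure D5:**
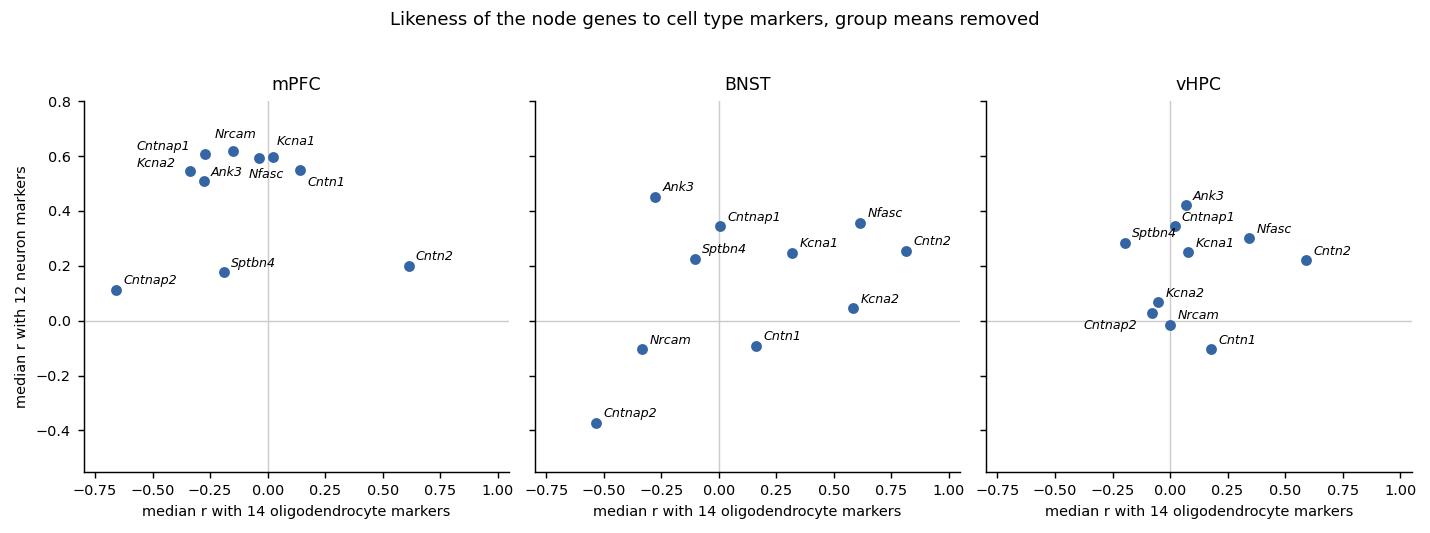
Median Pearson r of each node gene with 14 oligodendrocyte markers (one axis) and 12 neuron markers (the other) within groups, in the mPFC, BNST and vHPC. Cntn2 is the member highest with oligodendrocyte markers in each region (0.61, 0.82 and 0.59), and Nfasc lies at -0.04 in the mPFC and at 0.61 in the BNST.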

How the data were processed

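RNA-seq values of 88 libraries from the mPFC, BNST and vHPC were analysed region by region. The study gives adapter trimming, removal of PCR duplicates, alignment to GRCm38 with STAR and counting on exons of Ensembl release 86 with HTSeq. The mPFC and vHPC tables were deposited as log2 CPM, which the authors had filtered, transformed with voom and adjusted for library sets with ComBat (for sequencing sets too in the vHPC), so between-set differences were already partly removed. For the BNST the authors deposited whole read counts without these steps. Ribosomal RNA was depleted throughout, and the library preparation kit differed between regions.

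Groups were taken from the labels, and library and sequencing sets and mouse ID prefixes from the study's supplementary design list. The deposited log2 CPM were fitted with limma 3.58.1 (robust empirical Bayes). In the BNST, genes reaching 1 CPM in 6 or more libraries were kept, scaled by TMM and fitted with edgeR 4.0.16 (robust quasi-likelihood test). R 4.3.3 was used. BNST levels are log2 CPM with a prior count of 0.5. All groups of a region entered the fit, with a mean per group and no covariate. Tests were two-sided and Benjamini-Hochberg adjusted over all genes tested, with calls under 0.05, and were tested on simulated data. Levels per kilobase used merged exons. Named beside the 10 members were at most 3 called genes of 5 wider node lists per comparison, ordered by absolute log2 fold change, and the 5 genes nearest to a member. Covariation used genes with a mean log2 CPM of at least 1. The members and lists were chosen with earlier results of these data known. Alternatives were other normalisations and filters, DESeq2 1.42.0 in the BNST, covariates for library set, for mouse ID prefix and for sequencing set, a fit of sequencing set 1, a fit without the groups not compared, each mouse left out in turn, and a GC adjustment (20 bins) chosen after seeing the data. 1 called gene of the wider lists is not reported here.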

Additional observations from a re-analysis of the deposited data

Results flagged for a closer look

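Of the groups of 4 to 10 mice, 140 sets of 1 member in 1 group were examined for a library far from the others of its group (Dixon's 95% limit), and 12 were marked, where chance marks about 1 in 20. In the mPFC the log2 CPM of susceptible B6 mouse 4 was far below its group for Nfasc (7.68), Cntn1 (9.16) and Kcna1 (6.15). Cntnap2 was far above its group in control B6 mouse 6 (8.01) and far below it in susceptible B6 mouse 1 (7.76), and Cntn1 was far below in control D2 mouse 4 (9.23). In the BNST susceptible B6 mouse 3 was far above its group for Ank3 (11.29) and Sptbn4 (8.73) and far below it for Cntn1 (7.68), and its TMM factor of 0.656 was the lowest of the region. Sptbn4 was far above its group in resilient B6 mouse 2 (8.60) and far below it in control D2 mouse 2 (5.26). Cntn2 was far below in susceptible B6 mouse 2 (6.82). No vHPC library was marked. Without susceptible B6 mouse 4 of the mPFC, Nfasc, Cntn1 and Nrcam were called between susceptible strains and Cntnap1 was not.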

How the results depend on the processing

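Counts per gene were at hand in the BNST alone, where intervals were wide, and vHPC groups held as few as 3 mice. Over 1690 log2 fold changes of single members under alternatives other than leaving out a mouse, 1632 kept their side of the threshold (136 of these, called in neither fit, changed sign), 36 lost the call, 21 gained it and 1 reversed: Ank3 between susceptible and resilient B6 mice of the vHPC was -0.00746 with sequencing set 1 alone. With library set in the fit, called members in the vHPC came to 0 against controls (resilient B6, susceptible B6, susceptible D2) and 0 in susceptible against resilient B6 mice, and to 1 between control strains and 1 between susceptible strains, and in the mPFC to 1 between susceptible strains. With sequencing set 1 alone the vHPC gave 0 in resilient B6 mice, 0 in susceptible against resilient B6 mice, 0 in susceptible D2 mice and 1 between susceptible strains, and with sequencing set as a covariate 1 in resilient B6 mice. With only the groups compared it gave 1 in resilient B6 mice, 0 in susceptible against resilient B6 mice, 2 in susceptible D2 mice (Cntnap1 and Cntnap2) and 2 in the strain by stress test, and the mPFC gave 1 between susceptible strains. GC adjustment gave 1 in vHPC resilient B6 mice, 1 in mPFC susceptible against resilient B6 mice (Cntnap2), 1 between susceptible strains in the mPFC and 1 in the BNST (Ank3). Quantile normalisation gave 4 between control strains and 4 between susceptible strains in the mPFC, and empirical Bayes with a trend 3 between control strains. DESeq2 gave 1 between susceptible strains in the BNST (Ank3). Fewer samples entered the fits of sequencing set 1 and of the groups compared, and for the others the cause was not tested. The shares of all genes called under these alternatives are not given here. Leaving out 1 mouse gave 0 to 1 called members in mPFC susceptible against resilient B6 mice, 1 to 3 between control strains and 1 to 4 between susceptible strains. In that order 0.0211% to 4.43%, 23.9% to 29.0% and 15.6% to 19.0% of all genes were called. In the vHPC it gave 1 to 2 in resilient and 3 to 4 in susceptible B6 mice, 1 to 4 between these, 6 between control strains, 2 to 4 between susceptible strains and 1 in susceptible D2 mice, and 0 in the comparisons not listed. Of all genes, 8.26% to 13.5% were called in resilient and 27.3% to 39.5% in susceptible B6 mice, and 7.64% to 36.6% between these. The vHPC shares were 56.6% to 58.2% between control strains, 24.6% to 31.2% between susceptible strains and 2.82% to 4.09% in susceptible D2 mice. A prior count of 2 in the BNST moved mean levels by at most 0.000908. Mouse ID prefix as a covariate gave no value for strain contrasts or resilient D2 mice of the BNST. No paired analysis was possible because the labels give no litter or cage and every mouse stands in 1 group.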

Other observations

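In the BNST the 5 genes nearest to Cntnap2 between mice (Gm43885 at r 0.97, Gm43882 at 0.95, and B230112I24Rik, Gm43889 and Gm43880 at 0.94) all lie within the span of Cntnap2 itself on the same strand (GRCm38, for example Gm43885 at chr6:45194876-45197417) and carry the biotype TEC, a transcript still to be checked by experiment. Among the 5 nearest genes of each member, this was found in no other region and for no other member. The mPFC and vHPC values had been filtered by the authors, and whether they include these genes was not tested. The BNST table was counted from total RNA after removal of ribosomal RNA, and the intronic share of its reads was not tested.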
